A study of Mus musculus with 40 samples.

Results

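One day of exposure to hen egg lysozyme (HEL) in the mouse was compared with no exposure, over all genes, in sorted follicular (FO) B cells with at least 1 intact Ikzf1 allele. The comparison takes 8 of the 28 RNA-seq libraries and 40 samples of the series. All came from C57BL/6 mice with the MD4 transgene, whose B cell receptor binds HEL. The 5 HEL libraries were Ikzf1(fl/fl) without Cre, from mice given HEL intravenously 1 day before the cells were sorted. The 3 naive libraries, from untreated mice, were Ikzf1(fl/+), and naive library 3 also carried Cd23-cre, a recombinase driven by the promoter of a mature B cell gene. The number of floxed alleles therefore differed between the groups, so its part and that of HEL cannot be told apart. A further fit adds 3 anergic libraries, described below, and 5 HEL libraries of Cd23-cre Ikzf1(fl/fl) mice. All 3 naive libraries were from male mice by their Y-linked transcripts, whereas HEL libraries 1 to 3 were from females and 4 and 5 from males. Whether each library of a group stands for its own animal is not stated in the labels, so the p-values reflect spread among libraries that may be partly technical. Of 24732 genes in the files, 10457 reached a scaled TPM (the length-normalised transcript abundance, divided by the median-ratio size factor of the library) of 1 in at least 3 libraries and were tested.

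Binding of antigen to the B cell receptor activates the kinases Lyn and Syk, which drive calcium entry, the Ras-ERK cascade and NF-kB. These branches induce early genes such as those of the Egr and Nr4a families, and with help from T cells or microbial signals the cell grows and divides. Soluble antigen without such help is the classical setting of B cell anergy, in which cells remain alive but respond poorly, and mice that carry MD4 together with ML5, a transgene for soluble HEL, are its best known model.

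The sorted cells had the transcripts of mature B cells. Cd79a, which encodes a signalling chain of the receptor, had a scaled TPM of 7658 to 8561 after HEL and 6650.2 to 7843 in naive cells. The 10 defining markers of FO B cells were all tested, of which 3 rose and 3 fell; 1 rose without naive library 1 or 2, and 1 fell without naive library 3. Ikzf1 itself was at 226, 207, 260.4, 220.3 and 213 in HEL libraries 1 to 5 and at 135, 203 and 130.4 in naive libraries 1 to 3, a log2 difference of 0.55 ± 0.14 whose adjusted p was 0.0103. The call was lost with a term for sex and without naive library 3, which carried Cre (adjusted p = 0.0562 and 0.0504). Depth was 16091616 to 20181057 recovered reads per library. Summed scaled TPM of T cell markers was 2.13 to 3.01 after HEL and 2.38 to 3.25 in naive cells, and that of neutrophil, erythroid, platelet and stromal markers was at most 5.33 in any library. NK cell markers summed to 10.5 to 13.1 after HEL and 12.7 to 16.9 in naive cells, mostly through Prf1, which was called lower. Its groups overlapped, and the Prf1 call was lost with a term for sex and without naive library 2 or 3 (adjusted p = 0.155, 0.102 and 0.0656). Klrb1c, another NK cell marker, was too low to be tested and went the other way, at 0.204 to 0.758 after HEL and 0 in naive cells. Dendritic cell markers summed to 116 to 400 and 157 to 192, mostly through Bst2, also an interferon-stimulated gene. Of these Flt3 fell, from 7.65 to 19.3 (naive) to 2.85 to 6.42 (HEL). Of 12 monocyte and macrophage markers 8 were tested, 1 rose and 4 fell (12.5% and 50.0%, against 21.2% and 19.1% of all genes). The sum of the 12 was 17 to 21.6 after HEL and 21.8 to 46.7 in naive cells, and it includes the complement genes C1qa and C1qb. Without naive library 1 or 2 the lowered markers numbered 2. A list of 8 heat shock and handling genes summed to 819, 852, 559, 854 and 816 in HEL libraries 1 to 5 and 432, 345 and 424 in naive libraries 1 to 3, mostly through the chaperone Hspa8. The part of handling in the results was not tested. HEL library 5 stood apart from the rest of its group in interferon-stimulated genes. In bulk samples such as these, fewer cells of a type and less RNA per cell cannot be told apart.

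After 1 day of HEL 2217 genes were higher and 2001 were lower at an adjusted p under 0.05 (limma on log2(scaled TPM + 1), Benjamini-Hochberg adjustment over all genes tested, 5 against 3 libraries). Library values did not overlap between the groups for 41.0% of genes. The 4218 called genes were 40.3% of those tested, the raised ones 21.2% and the lowered ones 19.1%, and the median log2 difference over all genes was 0.01. Most of the differences were small. A change of at least 2-fold on this scale was found for 318 genes (3.04%), of which 190 were higher (1.82%) and 128 lower (1.22%). A pseudocount of 1 was added before taking logarithms, which makes log2 differences of low genes smaller than their true ratio. With TPM as deposited 1036 genes were higher and 3979 lower and the median of all genes moved to -0.16, so that modest differences below are relative to the scaling. With a term for sex 1777 genes were higher and 1557 lower. Because all naive libraries were male, the HEL estimate under that term rests on HEL libraries 4 and 5 against the 3 naive libraries. A call lost with a term for sex may therefore reflect either of these 2 libraries as well as sex. Without naive library 3, which alone carried Cre, 3129 genes were called, and without HEL library 5, 4330. Each log2 difference is given as estimate ± standard error, and a gene said to rise or fall by a value does so on the log2 scale.

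**Figure D1:**
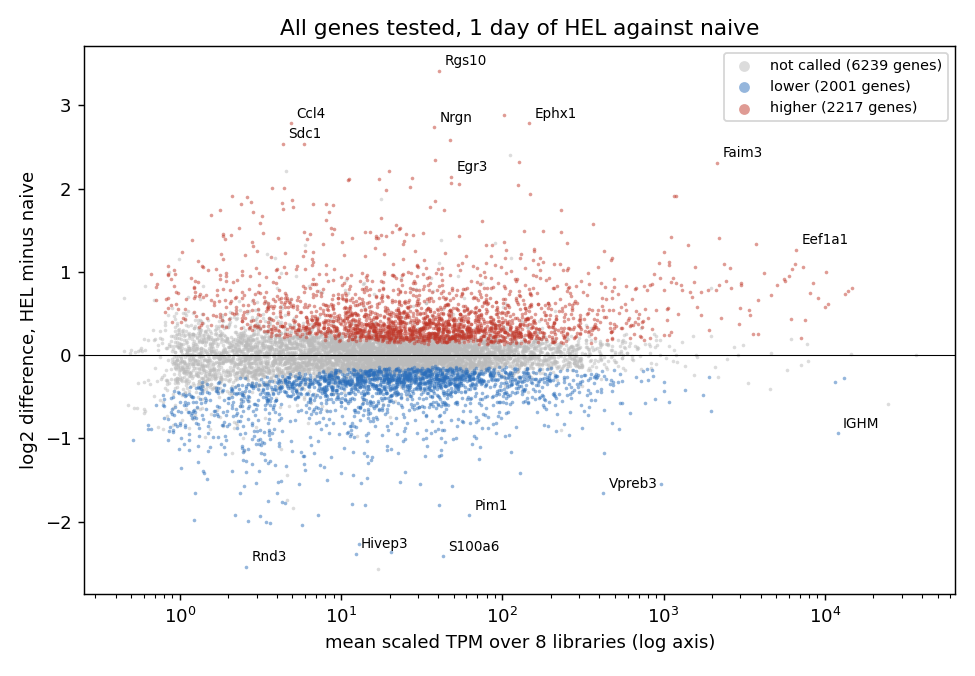
Log2 difference of HEL minus naive (vertical axis) against the mean scaled TPM over the 8 libraries (horizontal log axis) for the 10457 genes tested, one point per gene. Red points are the 2217 genes called higher, blue points the 2001 called lower, grey points the genes not called, and the named genes include Rgs10 at the top and Rnd3 near the bottom.

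The largest rise among the genes selected for size was that of Rgs10, a regulator that speeds the shutdown of G protein signalling. Its scaled TPM was 85.3, 71.3, 62.9, 61.4 and 30.5 in HEL libraries 1 to 5 and 6.43, 3.68 and 4.15 in naive libraries 1 to 3, a log2 difference of 3.41 ± 0.29 (adjusted p = 3.13e-05). The groups did not overlap, which the rule of selection requires, and HEL library 5 was the lowest of its group. Without it the difference in Rgs10 was 3.65. Ephx1, a microsomal epoxide hydrolase, was nearly uniform after HEL at 215, 219, 217, 210.1 and 226, against 26.7, 39 and 27.6 in naive cells. Its log2 difference was 2.79 ± 0.11 (adjusted p = 5.43e-07), and every HEL library was more than 5 times as high as every naive one. Nrgn encodes neurogranin, a protein that binds calmodulin and is best known from neurons. It was at 62.3, 50.2, 60.7, 57 and 49.7 after HEL and 8.21, 7.07 and 7.32 in naive cells (log2 difference 2.74 ± 0.09, adjusted p = 2.24e-07). Among abundant transcripts the steepest rise by this rule was that of Faim3, now called Fcmr, which encodes the Fc receptor for IgM. It stood at 3328, 2985, 3346, 2844 and 2818 after HEL and 485, 713 and 674 before (log2 difference 2.31 ± 0.12, adjusted p = 3.51e-06).

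Ccl4, a chemokine that B cells secrete after receptor stimulation to attract T cells, was close to 0 in naive cells at 0.644, 0.158 and 0. After HEL it was at 7.65, 5.36, 8.79, 8.22 and 8.12, a log2 difference of 2.78 ± 0.18 (adjusted p = 8.96e-06). Sdc1, the surface proteoglycan CD138 of plasma cells, rose from 0.313, 0.306 and 0.36 in naive libraries to 7.02, 7.84, 7.3, 5.17 and 6.49 in HEL libraries 1 to 5 (log2 difference 2.54 ± 0.12). Sp140, a nuclear body protein, was at 226, 201, 182, 208 and 101 against 33.5, 36.6 and 33.7, again with HEL library 5 lowest (log2 difference 2.32, and 2.53 without it). Lck, a Src family kinase best known from T cells, was at 71.2, 72.3, 82.9, 70.6 and 48.4 against 12.4, 13.7 and 6.85, but the file marks its gene model as overlapping another, so its reads are uncertain. The summed T cell markers were at or under 3.25 in every library.

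Rnd3, an atypical small GTPase that relaxes the actin cytoskeleton, fell the most by the same rule. It was at 10.6, 6.03 and 3.04 in naive libraries 1 to 3 and at 0.172, 0.139, 0.16, 0.364 and 0.114 in HEL libraries 1 to 5 (log2 difference -2.54 ± 0.28, adjusted p = 0.000118). S100a6, a calcium-binding protein of the S100 family, fell from 112, 86.5 and 65.5 to 13.1, 12.6, 11.6, 19 and 23.3, and HEL libraries 4 and 5, both from males, were the highest of their group. The large zinc finger protein Hivep3 fell from 27.7, 23.7 and 26.2 to 3.19, 4.53, 4.92, 4.62 and 3.6 (log2 difference -2.39 ± 0.12, adjusted p = 2.39e-06). Lrrc25, a leucine-rich repeat membrane protein, fell from 38.7 to 44.1 (naive) to 5.56 to 8.69 (HEL), and Ccdc88b, a coiled-coil protein of lymphoid and myeloid cells, fell from 22 to 33.2 (naive) to 3.7 to 5.36 (HEL). The kinase Pim1, a target of STAT5, was at 108, 115 and 124 in naive cells and at 25.9, 29, 28.9, 27.3 and 39.3 after HEL (log2 difference -1.92 ± 0.12, adjusted p = 6.67e-06). C1qa and C1qc, chains of the complement component made mostly by macrophages, were also among the 12 most lowered. C1qa was at 7.56, 11.4 and 4.48 in naive cells and 0.807, 0.817, 0.838, 1.64 and 1.39 after HEL. C1qa and C1qb are part of the summed macrophage markers given above, so that sum is no separate measure. Of the other markers on that list Csf1r and Vcam1 fell, whereas Cd68 rose from 3.93 to 4.74 (naive) to 5.85 to 10.3 (HEL). The gene model of Csf1r overlaps another, and Vcam1 was not called in male libraries alone (adjusted p = 0.0587). The part of macrophages in the fall of C1qa and C1qc was not tested.

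**Figure D2:**
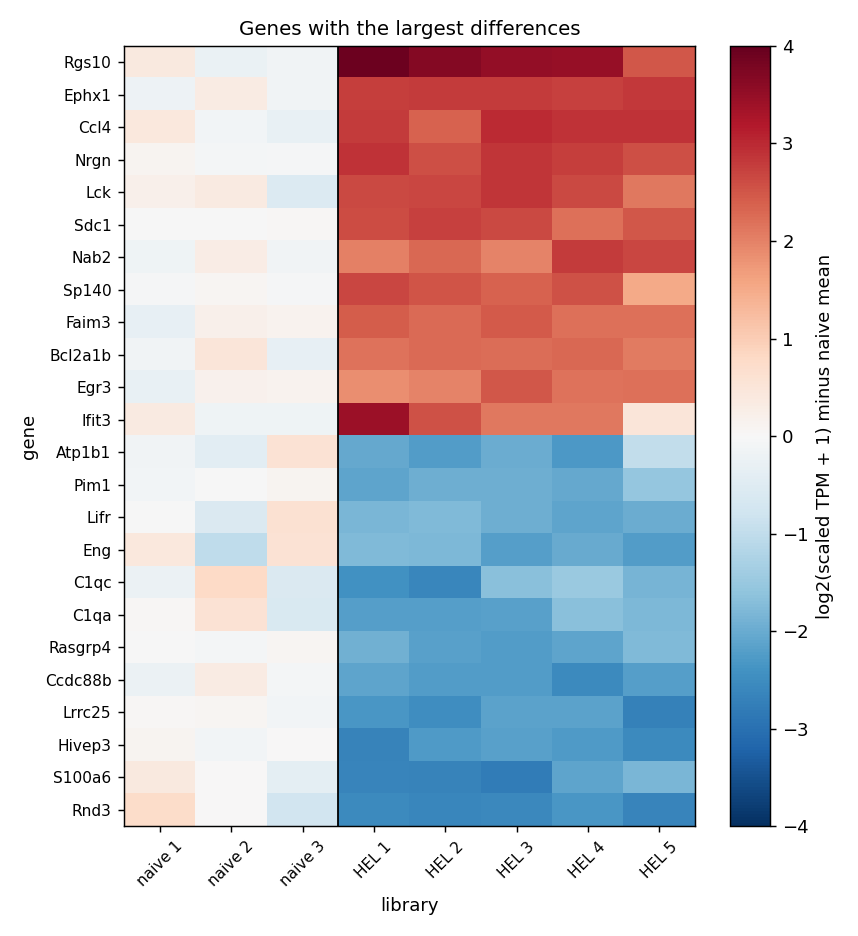
The 12 most raised and 12 most lowered genes by the rule (rows) in each library (columns), coloured by log2(scaled TPM + 1) minus the mean of the 3 naive libraries. All 5 HEL columns have the same direction in every row because the rule takes only genes whose groups do not overlap. HEL library 5 is the palest for Rgs10, Sp140 and Ifit3.

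Genes of the Egr, Nab and Nr4a families, which encode transcription factors induced by receptor signals and their co-repressors, were higher after HEL. Of 9 listed genes 7 were tested, of which 5 rose (71.4%, against 21.2% of all genes) and none fell. The median log2 difference of the 7 was 1.43, against 0.01 over all genes. Nr4a3 reached a scaled TPM of 1, the level needed for testing, only in HEL libraries. When a mean scaled TPM of 5 or more was required, 3 of the listed genes rose. Egr3 was at 55.8, 59.9, 86.9, 69.5 and 70.1 in HEL libraries 1 to 5 and 11.5, 16.5 and 16.1 in naive libraries 1 to 3 (log2 difference 2.14 ± 0.15, adjusted p = 1.29e-05). The lowest HEL library was more than 3 times the highest naive one. Nab2, a co-repressor of Egr proteins whose gene model overlaps another, was at 42.3, 51.4, 41.5, 73 and 67.9 against 8.62, 12.2 and 8.76 (log2 difference 2.35 ± 0.20). Nr4a1, which encodes the orphan nuclear receptor Nur77 and is widely used as a reporter of receptor signalling, was at 20.3, 22.2, 27.1, 38.8 and 40.4 against 6.56, 12.5 and 8.8, a log2 difference of 1.57 ± 0.25 (adjusted p = 0.00109). HEL libraries 4 and 5 had the highest Nr4a1. Nr4a3 and Egr2 rose at lower levels, from 0.234 to 0.441 (naive) to 1.65 to 4.32 (HEL) and from 0.854 to 1.93 (naive) to 4.03 to 6.82 (HEL) (adjusted p = 0.000967 and 0.000377).

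Egr1 did not follow its relatives. It was at 21, 19.5, 35, 24.4 and 24.8 after HEL and 22.1, 18.7 and 20.3 in naive cells, the groups overlapped, and the log2 difference was 0.25 ± 0.16 (adjusted p = 0.226). Nab1, the other Nab co-repressor, gave 0.03 ± 0.15 (adjusted p = 0.892). Nr4a2 was under 0.06 in all 8 libraries and was not tested.

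The same genes were set beside anergic cells, which had met soluble HEL throughout life in MD4 ML5 mice (3 libraries with an intact Ikzf1 allele). These 3 libraries were, in order, Ikzf1(fl/fl), Ikzf1(fl/+) and Ikzf1(fl/+) with Cd23-cre. The part of these genotypes in the differences from HEL cells was not tested. HEL and anergic libraries were compared directly in a limma fit over 16 libraries, in which 31.2% of 10855 genes were called, 16.7% higher and 14.5% lower after HEL than in anergic cells. Egr3 was at 209, 259.8 and 226 in the anergic libraries, higher than in every HEL library (log2 difference HEL minus anergic -1.77 ± 0.22, adjusted p = 4.11e-05). Nr4a1 was at 67.4, 79.6 and 133 and Egr2 at 21.7, 19.6 and 28.9 in anergic cells, and the differences HEL minus anergic were -1.62 ± 0.27 and -1.90 ± 0.21 (adjusted p = 0.000442 and 1.46e-05). Egr1 was at 77.5, 69.3 and 72.1 in anergic libraries against 19.5 to 35 after HEL, a difference of -1.55 ± 0.21 (adjusted p = 6.58e-05). Nab2 was an exception: it was at 54 to 82.2 in anergic cells and gave -0.34 ± 0.22 (adjusted p = 0.264).

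**Figure D3:**
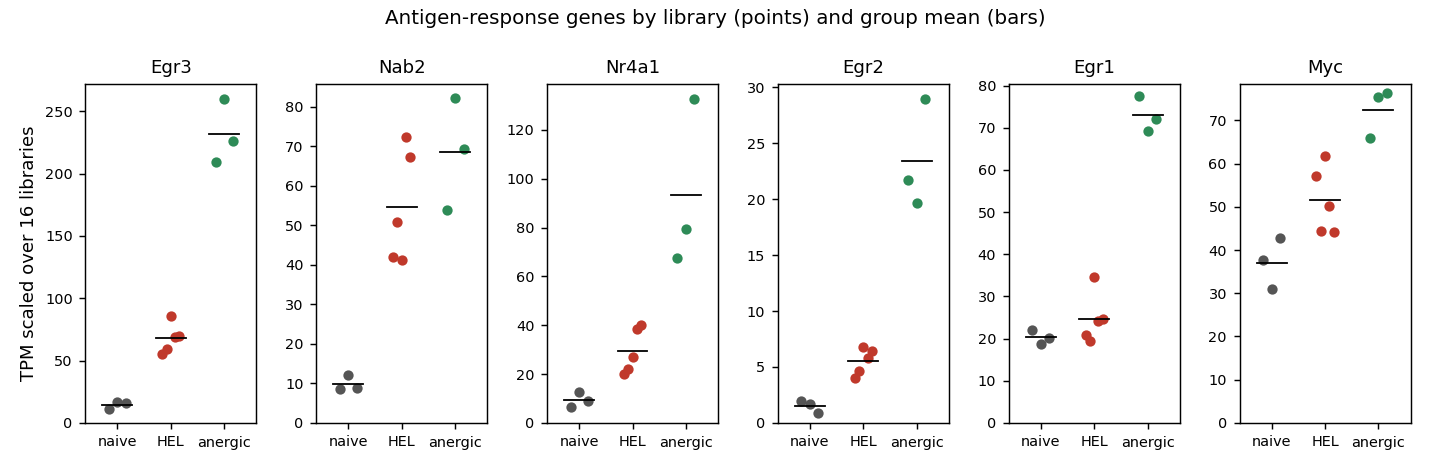
TPM scaled over 16 libraries (vertical axes, each starting at 0) of 6 genes in naive, HEL and anergic cells, with one point per library and a bar at the group mean. Egr3, Nr4a1 and Egr2 are higher after HEL than in naive cells and higher again in anergic cells, whereas Egr1 after HEL overlaps the naive level.

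Other early genes were divided. Of 9 AP-1 genes tested, the partner protein Batf rose (74.4, 76.8, 82.6, 80.9 and 66.9 against 56.6, 48.9 and 55.2, log2 difference 0.50 ± 0.08, adjusted p = 0.000914) and 3 fell (33.3%, against 19.1% of all genes). Junb fell by 0.49 and Maff fell by 0.61 on the log2 scale, and neither was called with a term for sex (adjusted p = 0.146 and 0.0584). Without naive library 2 or 3 Junb was not called either (adjusted p = 0.0506 and 0.0767). Jun (0.13) and Fos (-0.45) were not called. Of 22 further early genes 6 rose and 6 fell (27.3% each, against 21.2% and 19.1% of all genes). Those raised included Id3, an inhibitor of E proteins, at 303, 351, 329.8, 292 and 350.5 against 106, 138 and 141 (log2 difference 1.34 ± 0.10), and Ier5l at 9.69 to 14.1 against 2 to 3.74. Those lowered included Klf4, a factor of quiescent lymphocytes, with a log2 difference of -1.01, and Id2 with -0.86. Cd69, an early activation marker on the cell surface, was at 36.9, 27.4, 29.2, 25.2 and 21.8 after HEL and 32.1, 37.3 and 37.6 in naive cells and was not called (log2 difference -0.35 ± 0.14, adjusted p = 0.0708). It was called lower without HEL library 1 and with a term for sex (Cd69 log2 differences -0.45 and -0.58).

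Feedback inhibitors of Ras-ERK also moved both ways, 2 up and 4 down of 14 tested (14.3% and 28.6%, against 21.2% and 19.1% of all genes). The nuclear MAP kinase phosphatase Dusp4 was at 20.4, 26.8, 28.4, 20.9 and 19.5 after HEL and 3.94, 11.9 and 9.89 in naive cells (log2 difference 1.44 ± 0.27, adjusted p = 0.0027). Dusp5, another nuclear phosphatase that acts on ERK, went the other way, from 17.3, 30.6 and 30.9 to 5.8, 4.76, 7.85, 10.4 and 5.38 (log2 difference -1.80 ± 0.25, adjusted p = 0.000444). For neither did the groups overlap. In anergic cells Dusp4 was higher still at 45.3 to 90.4 (HEL minus anergic -1.51 ± 0.31, adjusted p = 0.00191), and Dusp5 was at 4.72 to 10.3 (HEL minus anergic 0.02 ± 0.26, adjusted p = 0.971). The cytoplasmic ERK phosphatase Dusp7 fell from 108 to 131 (naive) to 62 to 71.7 (HEL), a log2 difference of -0.82.

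The heavy chain transcripts of the receptor moved in opposite directions, IgM down and IgD up. The feature named IGHM was at 21239.6, 18834 and 11938 in naive libraries 1 to 3 and at 8989.9, 8719, 8640.0, 8657 and 9036 in HEL libraries 1 to 5 (log2 difference -0.94 ± 0.16, adjusted p = 0.00164). The naive libraries varied, library 3 being lowest, while the HEL libraries were close together. IGHD rose from 1389, 2145 and 1049 to 2772, 2644, 2703, 2378 and 2664 (log2 difference 0.85 ± 0.18, adjusted p = 0.00537). In male libraries alone its adjusted p was 0.0728. In anergic cells IGHD was at 3575 to 4676, above the HEL libraries by the direct test (HEL minus anergic -0.66 ± 0.17, adjusted p = 0.00696), and IGHM was at 6769 to 7705 (0.28 ± 0.13, adjusted p = 0.118). Cd79a and Cd79b, the signalling chains, differed by 0.13 (not called) and 0.25 (called, but not without naive library 1 or 2, adjusted p = 0.0514 and 0.0665).

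Of 24 proximal kinases and adaptors 6 rose and 7 fell, shares of the same order as over all genes. The guanine exchange factor Vav3 rose from 5.7, 4.54 and 3.07 to 9.2, 11.6, 10.3, 9.97 and 10.4 (log2 difference 1.08 ± 0.14, adjusted p = 0.000352). Lyn, the Src kinase that starts receptor signalling, rose by 0.33 from 193 to 204 (naive) to 241 to 267 (HEL). Malt1, a paracaspase that links the receptor to NF-kB, fell by 0.44, and Pik3r1, a regulatory subunit of phosphoinositide 3-kinase, fell by 0.45. With TPM as deposited the list had 1 raised and 11 lowered genes.

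Of 21 inhibitory co-receptors and phosphatases 5 rose and 5 fell, shares near the 21.2% and 19.1% of all genes, and each count was 3 without naive library 1 or 2. Cd72, an inhibitory lectin of B cells whose gene model overlaps another, was at 362, 365, 346, 362 and 283 against 187, 195 and 195 (log2 difference 0.83 ± 0.08, adjusted p = 8.63e-05), and HEL library 5 was the lowest of its group. Pag1, an adaptor that recruits the inhibitory kinase Csk, fell from 74.3 to 79.2 (naive) to 36.9 to 54.6 (HEL) (log2 difference -0.80), and Ptpn6, the phosphatase SHP-1, fell by 0.32. In the calcium and NFAT list 8 of 22 fell (36.4%) and 3 rose (13.6%), against 19.1% and 21.2% of all genes. The raised count was 1 without any of HEL libraries 1, 2 and 4 or naive library 2 and 0 without naive library 1. The pump Atp2a3, which returns calcium to the endoplasmic reticulum, was at 631, 674 and 673 in naive cells and 393, 354, 372, 384 and 369.6 after HEL (log2 difference -0.81 ± 0.05, adjusted p = 9.1e-06). The T-type calcium channel Cacna1i fell from 53.2 to 73.5 (naive) to 22.4 to 36.1 (HEL), and the plasma membrane pump Atp2b1 from 22.8 to 24.1 (naive) to 13.7 to 16.1 (HEL).

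Among NF-kB subunits and inhibitors 7 of 20 fell (35.0%) and 3 rose (15.0%), against 19.1% and 21.2% of all genes. Without HEL library 5 the raised genes numbered 5, and with TPM as deposited none was raised and 11 were lowered. Nfkb2, the precursor of the p52 subunit of the alternative pathway, fell from 338, 324 and 367 to 216, 213, 204, 207 and 222 (log2 difference -0.69 ± 0.06, adjusted p = 2.63e-05), though its gene model overlaps another. Nfkbia, the inhibitor that NF-kB itself induces, fell from 453, 426 and 449 to 267, 296, 291, 328 and 342 (log2 difference -0.54 ± 0.08, adjusted p = 0.00067). Both were higher in anergic cells, at 298 to 391 and 379 to 457 (HEL minus anergic -0.66 ± 0.08 and -0.48 ± 0.09, adjusted p = 4.71e-05 and 0.00083). Of 19 NF-kB target genes 6 rose and 4 fell (31.6% and 21.1%, against 21.2% and 19.1% of all genes). Bcl2a1b, a survival protein of the Bcl2 family, rose from 4.73, 7.76 and 4.03 to 27.6, 29.2, 29, 30.3 and 25.5 (log2 difference 2.21 ± 0.15, adjusted p = 1.16e-05), and its near-identical relative Bcl2a1d, with which it may share reads, rose by 1.83. The kinase Pim2 rose from 35.7 to 46.8 (naive) to 76.9 to 118 (HEL), a log2 difference of 1.32, opposite to Pim1. Lta, a cytokine of the TNF family, fell from 66.6 to 84.2 (naive) to 35.5 to 38.4 (HEL), and the antiapoptotic Birc3 and the co-stimulatory receptor Cd40 fell, with log2 differences of -0.69 and -0.68.

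Survival and death genes of the Bcl2 family and caspases leaned upward, 7 of 17 rising (41.2%, against 21.2% of all genes) and 1 falling. Besides Bcl2a1b and Bcl2a1d, Bcl2 itself rose from 14.8, 18.4 and 14.4 to 28.8, 24.7, 33.4, 28.3 and 23.3 (log2 difference 0.76 ± 0.12, adjusted p = 0.000917). Members that promote death rose too. Bcl2l11, which encodes Bim, was at 27.9, 28.8, 33, 23 and 25.3 against 14.8, 14.8 and 17.5 (log2 difference 0.77 ± 0.11, adjusted p = 0.000514), and Bmf rose by 0.85. In anergic cells Bcl2 and Bcl2l11 were higher again, at 42 to 46.6 and 30.2 to 46 (HEL minus anergic -0.68 ± 0.11 and -0.45 ± 0.13, adjusted p = 0.000285 and 0.0132).

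Ribosomal protein genes rose together. The 87 cytosolic ribosomal protein genes took 22.3%, 23.6%, 21.7%, 23.7% and 23.1% of TPM in HEL libraries 1 to 5 and 15.7%, 14.5% and 14.8% in naive libraries 1 to 3. Every HEL library was above every naive one, the means being 22.9% ± 0.865 (SD, n = 5) and 15.0% ± 0.615 (SD, n = 3), and an exact two-sided permutation test over 56 splits gave p = 0.0357, the smallest it can give with 5 against 3. Anergic libraries were at 17.0%, 15.2% and 18.8%. After scaling, 77 of 84 ribosomal protein genes tested were called higher (91.7%, against 21.2% of all genes) and none lower, with a median log2 difference of 0.80. Rpl36a, for example, was at 3009, 2988, 2599, 3045 and 2716 against 1254, 1037 and 963 (log2 difference 1.41 ± 0.10), and Rps18 rose by 0.98. Many of these genes have near-identical pseudogenes, so their absolute levels are uncertain. Rps24 was not called, and its values of 1699, 3346, 1405, 1676 and 3799 after HEL were the most scattered of the ribosomal protein genes described here.

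Elongation and initiation factors, grouped as a list after their values had been seen, included 24 that rose and 6 that fell of 59. These are 40.7% and 10.2%, against 21.2% and 19.1% of all genes. Eef1a1, which delivers aminoacyl-tRNA to the ribosome, was at 7982, 9625, 7175, 8753 and 8871 against 3997, 3396 and 3179 (log2 difference 1.27 ± 0.11, adjusted p = 4.06e-05). The initiation factor subunit Eif3e was at 190.1 to 206 against 100.2 to 104, and the poly(A)-binding protein Pabpc1 rose by 0.93. Of 11 host genes of small nucleolar RNAs, also grouped afterwards, 6 rose (54.5%, against 21.2% of all genes) and none fell. Gas5, which like ribosomal protein genes carries a terminal oligopyrimidine tract, was at 193, 186, 170.5, 199 and 153 against 69, 57.5 and 63 (2.85-fold higher by the means, adjusted p = 6.95e-06), and Snhg4 rose by 1.82. With TPM as deposited 72 ribosomal protein genes and 6 host genes were higher, but 17 factors were higher and 18 lower. Other genes of translation were divided. Of 20 aminoacyl-tRNA synthetases 5 rose and 7 fell, 3 and 4 without naive library 2 or 3. Of 24 mitochondrial ribosomal proteins 6 rose and 4 fell, the lowered genes numbering 2 without HEL library 2 and 0 without naive library 2. The lowered share of the synthetases was above the 19.1% of all genes. Their raised share and both shares of the mitochondrial ribosomal proteins were near the 21.2% and 19.1% of all genes.

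The genes that build ribosomes did not move with the ribosomal proteins. Of 35 ribosome biogenesis genes 7 rose and 15 fell (42.9%, against 19.1% of all genes), with a median of -0.16. The raised count was 2 without naive library 3. Rrs1 and Rrp12, ribosome assembly factors, fell from 45.8 to 51.2 (naive) to 31.5 to 34.7 (HEL) and from 21.9 to 24.6 (naive) to 13.5 to 16.6 (HEL). Polr1a, the catalytic subunit of RNA polymerase I, fell by 0.44, whereas Polr1c, a subunit shared with RNA polymerase III, rose from 87.6, 78.1 and 71.4 to 143, 149, 143, 170.4 and 141 (log2 difference 0.91 ± 0.08). Npm1, a nucleolar chaperone, rose from 81.1 to 97.9 (naive) to 189 to 207 (HEL), a log2 difference of 1.14 ± 0.07.

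Myc, which drives growth of activated B cells, was at 57.6, 44.7, 62.4, 50.8 and 44.5 after HEL and 37.8, 31 and 43 in naive cells (log2 difference 0.47 ± 0.13, adjusted p = 0.0187). The call was lost without naive library 2 and with a term for sex (adjusted p = 0.0845 and 0.122). Anergic cells had more, 65.9 to 76.2 (HEL minus anergic -0.49 ± 0.15, adjusted p = 0.0224). Of 21 genes in the Myc network and its direct targets 11 rose and 4 fell (52.4% and 19.0%, against 21.2% and 19.1% of all genes), 7 rising without naive library 2. The largest rise was that of Mxd4, which competes with Myc for its partner Max, at 296, 341, 312, 348 and 268 against 91.1, 87.6 and 98.9 (log2 difference 1.74 ± 0.09, adjusted p = 2.39e-06). Mnt, another competitor, fell by 0.56, and Tfap4, a direct Myc target, fell by 0.76.

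Nuclear genes of the respiratory chain rose in 13 of 24 cases (54.2%, against 21.2% of all genes) and none fell, with a median of 0.27. With TPM as deposited 8 rose and 4 fell. Cox4i1 of complex IV and Uqcrfs1 of complex III rose by 0.58 and 0.61, while Atp5b (0.13) and Cox5b (0.18) were not called. Glycolytic genes were 5 up and 3 down of 20, shares near the 21.2% and 19.1% of all genes. Gpi1, the second enzyme of glycolysis, rose from 264 to 277 (naive) to 433 to 533 (HEL) (log2 difference 0.86 ± 0.07), Pfkl fell by 0.37, and Pkm and Aldoa were not called. Serine synthesis rose at each of its enzymes: Phgdh by 0.78, Psat1 by 0.59 and Psph by 0.39, with Phgdh at 47.7, 47.3, 43.8, 46.3 and 47.8 against 26.6, 28.4 and 25.1.

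Genes of cholesterol synthesis and uptake fell in 9 of 18 cases (50.0%, against 19.1% of all genes) and rose in 2. In male libraries alone 4 fell, and 1 rose without HEL library 4 or naive library 1 or 3. Insig1, a sterol sensor that SREBP induces, fell by 0.70 (adjusted p = 0.0504 in male libraries alone). Apoe, an apolipoprotein that accepts exported cholesterol, rose from 43.9, 82.5 and 38.6 to 246, 263, 189, 177 and 156 (log2 difference 1.94 ± 0.24, adjusted p = 0.000287), and was higher still in anergic cells at 243 to 471 (HEL minus anergic -0.81 ± 0.26, adjusted p = 0.0275). Of 10 amino acid transporters 4 fell (40.0%, against 19.1% of all genes) and none rose. Slc7a1, which imports arginine and lysine, fell from 27 to 28.8 (naive) to 12.6 to 16.3 (HEL) (log2 difference -0.90 ± 0.08), and Slc1a5, a glutamine transporter, fell by 0.56.

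In the cell cycle list 7 genes rose and 4 fell of 31 (22.6% and 12.9%, against 21.2% and 19.1% of all genes), and 2 fell without naive library 3. The D-type cyclin Ccnd2, an early target of receptor signals, rose from 34.4, 32.9 and 28.7 to 78.6, 63.6, 80.6, 78.4 and 39.7 (log2 difference 1.03 ± 0.21, adjusted p = 0.00377), with HEL library 5 lowest. Without that library the difference in Ccnd2 was 1.21, and in male libraries alone its adjusted p was 0.0607. Ccne1 and Cdk4 rose by 0.48 and 0.28. Tk1, an enzyme of S phase whose gene model overlaps another, fell by 0.87, and the division marker Mki67 was at 0.383 to 1.31 after HEL and 0.809 to 2.62 in naive cells (not called, log2 difference -0.49 ± 0.26, though lower by the test with a term for sex, adjusted p = 0.0305). Among quiescence genes and inhibitors 6 rose and 2 fell of 18 (33.3% and 11.1%), with 1 lower without naive library 2 and none without naive library 3. Btg2 and Tob1, which restrain proliferation, rose from 194 to 228 (naive) to 306 to 360.4 (HEL) and from 16.3 to 19.9 (naive) to 27.3 to 41.5 (HEL) (log2 differences 0.65 and 0.86).

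On the cell surface, 3 activation and co-stimulatory genes rose and 3 fell of 16 (18.75% each, near the 21.2% and 19.1% of all genes). Cd86, the ligand of CD28 on T cells, was at 29.8, 22.5, 21.5, 22.8 and 14.2 against 11.8, 11.8 and 12.1 (log2 difference 0.81 ± 0.18, adjusted p = 0.00564). HEL library 5 was closest to the naive level, the difference in Cd86 was 0.95 without it, and in male libraries alone the adjusted p was 0.0552. Lag3, an inhibitory receptor, rose from 0.265, 0.467 and 0.11 to 4.02, 3.83, 5.11, 4.01 and 1.44 (log2 difference 1.82 ± 0.26). Cd24a, a heat-stable antigen of immature B cells, fell from 406 to 465 (naive) to 213 to 255 (HEL). Among genes of antigen presentation by MHC class II, H2-Aa and Cd74 were not called (log2 differences 0.02 ± 0.09 and -0.00 ± 0.10), whereas H2-Oa and H2-Ob, the chains of an inhibitor of peptide loading, rose by 0.45 and 0.38. Ifi30, a thiol reductase that opens antigens such as lysozyme in endosomes, fell from 1704, 1443 and 1732 to 563, 595, 537, 659 and 446 (log2 difference -1.54 ± 0.12, adjusted p = 1.9e-05). That list had 5 raised and 4 lowered genes of 16, and 2 lowered without naive library 2 or 3.

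Homing receptors were 3 up and 6 down of 17 (17.6% and 35.3%, against 21.2% and 19.1% of all genes). Cxcr5, the receptor that holds B cells in follicles, fell by 0.30. S1pr1 and Klf2 were not called (-0.16 and -0.09). Of the SOCS and Pim genes, Socs3, a feedback inhibitor of STAT3, fell from 61.8, 30.4 and 64.1 to 18.7, 20.2, 29.4, 26.8 and 13.1 (log2 difference -1.21 ± 0.29, adjusted p = 0.00829). Socs1, which acts on interferon signalling, was at 53.1, 51.9, 52.9, 55.4 and 11.8 after HEL and 24.7, 15.9 and 21.7 in naive cells. HEL libraries 1 to 4 were high and HEL library 5 was below every naive library, so that the log2 difference of 0.92 ± 0.45 was not called (adjusted p = 0.128). Without HEL library 5 it was 1.34 (Socs1, adjusted p = 4.9e-05).

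Taken as a set by their median, interferon-stimulated genes were higher in 4 HEL libraries and not in the fifth. Of 30 tested, 20 were called higher (66.7%, against 21.2% of all genes) and none lower, with a median log2 difference of 1.20. Isg15, a ubiquitin-like protein that interferon induces strongly, was at 333, 194, 148, 182 and 40.1 in HEL libraries 1 to 5 and 37.9, 36.7 and 31 in naive libraries 1 to 3 (log2 difference 2.04 ± 0.53, adjusted p = 0.0125). HEL library 5 was thus near the naive level and HEL library 1 far above the rest. Without HEL library 5 the Isg15 difference was 2.51, and with a term for sex 1.27 (adjusted p = 4.9e-05 and 0.102). Ifit3, an antiviral protein, gave 81.1, 43.7, 32.3, 32.1 and 9.71 against 8.88, 5.88 and 5.79 (log2 difference 2.12 ± 0.51), and the surface antigen Ly6a, also induced by interferon, 1568, 1308, 1293, 1264 and 537 against 544, 509 and 508. Without HEL library 5 the differences in Ifit3 and Ly6a were 2.54 and 1.38, and with a term for sex 1.28 and 0.66, neither of which was called. The median over the 30 genes of the log2 difference from the naive mean was 2.16, 1.48, 1.26, 1.34 and -0.20 in HEL libraries 1 to 5 and lay between -0.04 and 0.11 in the naive libraries.

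The count of raised interferon-stimulated genes depended on the fit and on the libraries used. With all 8 libraries it was 7 without a filter on level, 13 without the mean-variance trend and 13 with voom on recovered reads. It was 30 of 30 without HEL library 5, between 9 and 12 without any other HEL library, and 8, 6 and 7 without naive libraries 1, 2 and 3. With a term for sex 4 were called and in male libraries alone 5. In both, the HEL estimate rests on HEL libraries 4 and 5, so sex and HEL library 5 cannot be told apart there. HEL library 4, like HEL library 5 from a male, had an Isg15 of 182. Summed over the list, scaled TPM was 3663, 2359, 2094, 2163 and 878 after HEL and 989, 898 and 903 in naive cells. An exact two-sided permutation test of this sum gave p = 0.143 (0.238 after adjustment over the marker lists). Cells of Cd23-cre Ikzf1(fl/fl) mice exposed to HEL in the same way spread as well, Isg15 running over 73.3 to 180.3 in 5 libraries, whereas anergic cells were at 11.9, 9.14 and 26.8. In HEL library 5 Egr3 and Nr4a1 were among the 2 highest of the group (70.1 and 40.4), whereas Cd69, Batf and Ccnd2 were the lowest (21.8, 66.9 and 39.7).

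**Figure D4:**
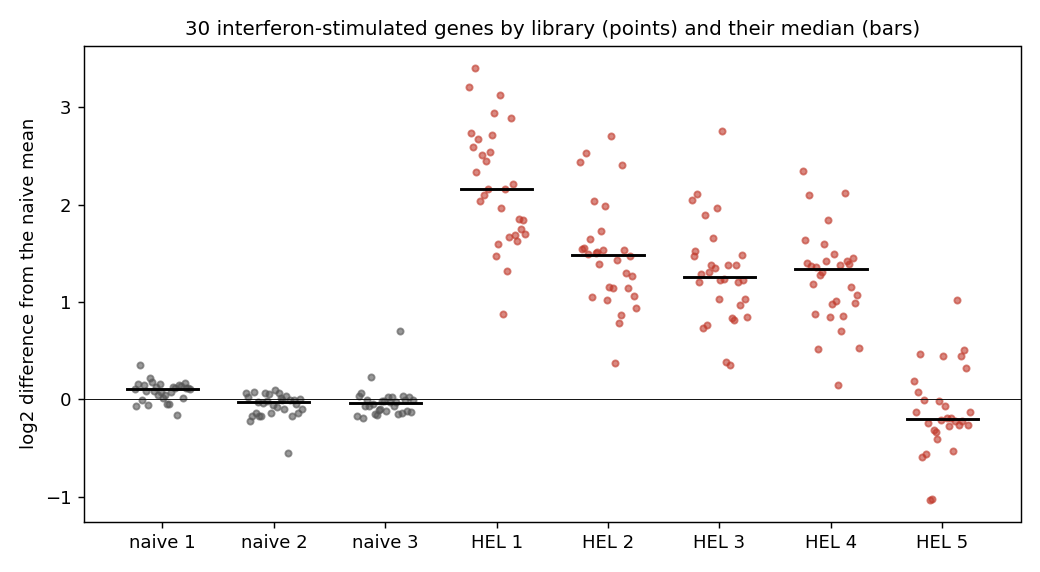
Log2(scaled TPM + 1) minus the mean of the naive libraries (vertical axis) for 30 interferon-stimulated genes, one point per gene in each library, with a bar at the median. Medians of HEL libraries 1 to 4 lie between 1.26 and 2.16, and that of HEL library 5 is at -0.20, just below the naive libraries.

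Of the genes tested, 8298 have a promoter in the RefSeq table (GRCm38.p6), and the 250 bases before the start site were searched for short motifs on both strands. The letters GAAA, any 2 bases and GAAA again, the core of the element bound by interferon-activated factors and added to the search after the rise had been seen, stood in 3.29% of all promoters (273 of 8298), 4.83% of those of raised genes and 1.79% of those of lowered genes. Among genes raised at least 2-fold the share was 12.6% (17 of 135), and in the interferon-stimulated list 11 of the 22 genes with a promoter held it. These sets share genes, Isg15 and Ifit3 among them, so their shares are not independent. None of the motifs searched is contained in another. Matches of 5 genes are shown with up to 30 bases on each side, 5′ to 3′ in the direction of the gene, with the match in capitals, because these genes moved together. The stretch of Isg15 lies at chr4:156200857-156200926 on the minus strand, Ifit3 at chr19:34583343-34583412 on the plus strand, Stat2 at chr10:128270248-128270315 on the plus strand, Irgm1 at chr11:48871421-48871480 on the minus strand and Oas1a at chr5:120907526-120907575 on the minus strand.
Isg15: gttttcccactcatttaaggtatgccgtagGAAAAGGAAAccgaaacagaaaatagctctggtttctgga
Ifit3: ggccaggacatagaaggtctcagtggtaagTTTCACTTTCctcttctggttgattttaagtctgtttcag
Stat2: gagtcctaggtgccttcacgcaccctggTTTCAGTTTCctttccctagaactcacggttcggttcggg
Irgm1: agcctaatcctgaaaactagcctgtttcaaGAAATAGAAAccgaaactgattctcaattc
Oas1a: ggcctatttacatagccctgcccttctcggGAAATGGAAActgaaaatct

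All 5 genes behind these promoters were lowest of the HEL group in HEL library 5, though not always at the naive level. Stat2, a subunit of the interferon-activated factor itself, was at 158, 116, 122, 102 and 70.3 after HEL and 52.2, 55.1 and 47.5 in naive cells (log2 difference 1.08 ± 0.20, adjusted p = 0.00265). Irgm1, an immunity-related GTPase, was at 182, 139.8, 141, 138 and 71.4 against 56.3, 48.1 and 45.7 (log2 difference 1.35 ± 0.24). Oas1a, which makes the activator of RNase L, was at 53.2, 38.1, 34.3, 23.5 and 7.04 against 8.15, 7.43 and 10.1 (log2 difference 1.51 ± 0.50), and its call was lost without any one of the libraries except HEL library 5 and with a term for sex (Oas1a log2 difference 0.56). HEL library 5 was above every naive library for Stat2 and Irgm1 and below every naive library for Oas1a. Of 12 guanylate-binding proteins and related GTPases, grouped afterwards, all 12 rose, against 21.2% of all genes. Their count ran from 6 to 7 without any one of HEL libraries 2 to 4 or of the naive libraries, and was 6 with a term for sex. Gbp3 rose from 13.4, 13.8 and 17.5 to 48.2, 46, 43.5, 44.3 and 32.9 (log2 difference 1.46 ± 0.13, adjusted p = 3.45e-05) and differed from the naive level in HEL library 5 too.

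CACGTG, the site of Myc and related factors, stood in 10.4% of all promoters, 8.71% of raised and 11.6% of lowered genes. Egr letters (GCGTGGGCG) stood in 1.3% of all promoters, 1.97% of raised and 1.48% of lowered genes. For TGACTCA, the AP-1 site, these shares were 3.45%, 3.6% and 3.09%. For the CArG box of serum response factor they were 1.35%, 1.01% and 1.73%. None of these differences was tested. In the smaller sets the shares moved more: CACGTG stood in 2.96% of promoters of genes raised at least 2-fold (4 of 135), the CArG box in 2.96% of these and in 4.3% of genes lowered at least 2-fold, against 1.35% of all, and TGACTCA in 4 of the 22 interferon-stimulated genes (18.2%, against 3.45% of all). No match says only that these letters are not in the window searched.

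Toll-like receptors and their adaptors were 5 up and 5 down of 26 (19.2% each, near the 21.2% and 19.1% of all genes). The raised count was 3 without naive library 3. Tlr7, a receptor of single-stranded RNA, was at 37.5, 26, 32, 22.5 and 11.4 after HEL and 11.7, 10.6 and 13.7 in naive cells (log2 difference 0.96 ± 0.30, adjusted p = 0.0309). HEL library 5 fell within the naive range, and the call was lost without any one library except HEL library 5. Tlr7 is X-linked, and with a term for sex its difference was 0.40 and in male libraries alone 0.40 (adjusted p = 0.247 and 0.278). Tlr9, which senses CpG DNA, was lower in every HEL library, 167, 144, 149, 129.6 and 99.3 against 198, 188 and 201 (log2 difference -0.52 ± 0.14, adjusted p = 0.0142). The adaptor Myd88 rose by 0.45 and Irak3, an inhibitor of these receptors, fell from 41.4 to 44.2 (naive) to 24.4 to 27.7 (HEL) (log2 difference -0.68 ± 0.05).

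Genes of mature B cell identity fell in 9 of 22 cases (40.9%, against 19.1% of all genes) and rose in 3. With a term for sex 1 rose, and with TPM as deposited none rose and 14 fell. Spib, an Ets factor of mature B cells, fell from 989, 952 and 975 to 637, 645, 614, 696 and 674 (log2 difference -0.57 ± 0.06, adjusted p = 7.03e-05). Ikzf3, the Ikaros relative Aiolos, fell from 298 to 333 (naive) to 235 to 264 (HEL), and Ebf1 fell by 0.38, while Mef2c rose by 0.37. Vpreb3, a chaperone of the immature receptor, led the early B cell list (3 of 4 fell) with 824, 701 and 691 in naive cells and 230.3, 223, 214, 242 and 254 after HEL, a log2 difference of -1.66 ± 0.08 (adjusted p = 2.38e-06). Of 11 germinal centre genes 7 fell (63.6%, against 19.1% of all genes) and none rose, but Bcl6, the defining factor, was not called (log2 difference -0.21 ± 0.13). The naive libraries were uneven in these genes: Mef2b was at 32.1, 19.1 and 9.6 in naive libraries 1 to 3 and 10.7, 9.74, 6.62, 4.32 and 2.48 after HEL, and Basp1 at 37.1, 27.3 and 11.8 and 10.7, 12.4, 9.19, 8.16 and 5.89. Only 2 genes were called without naive library 1 or without naive library 2, and 4, 3 and 4 without HEL libraries 3, 4 and 5. Plxnb2 was the steadiest, from 30.9, 18.7 and 25.3 to 8.06, 7.58, 8.07, 8.83 and 8.13 (log2 difference -1.48 ± 0.13), though its gene model overlaps another.

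Of 14 plasma cell and secretory genes 5 rose and 4 fell (35.7% and 28.6%, against 21.2% and 19.1% of all genes). Without naive library 2 or 3 the lowered genes numbered 2. Besides Sdc1, the factor Irf4 rose from 43.1 to 47.8 (naive) to 55.9 to 70.8 (HEL) (log2 difference 0.43 ± 0.08) and the secretory chaperone Mzb1 by 0.39. Prdm1, the master regulator of plasma cells, was at or under 0.41 in all 8 libraries and was not tested, and Xbp1 fell by 0.30 with a call lost without naive library 2 or 3. Among Notch and marginal zone genes 3 rose and 5 fell of 14 (21.4% and 35.7%), the lowered genes numbering 3 without naive library 2. The ligand Dll1 rose from 0.589, 0.94 and 0.996 to 8.78, 6.88, 6.51, 7.25 and 3.56 (log2 difference 2.01 ± 0.21, adjusted p = 0.000108), whereas the Notch target Hes1 fell from 103, 97.7 and 90.5 to 36.9, 43.9, 48.5, 58.6 and 43.1 (log2 difference -1.07 ± 0.12) and the receptor Notch2 fell by 0.52.

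Of 18 tested candidates for anergy 10 rose (55.6%, against 21.2% of all genes) and 2 fell (11.1%, against 19.1%). In male libraries alone 5 rose. Nrgn, Lag3 and the Egr and Nr4a genes described above make up most of the rise, and Dgka, a diacylglycerol kinase that dampens Ras, rose by 0.37. The same cells set directly beside anergic ones were lower in Nrgn (49.7 to 62.3 after HEL, 72.6, 90.4 and 220.0 in the anergic libraries, HEL minus anergic -1.02 ± 0.23, adjusted p = 0.00394) and in Ephx1 (276 to 315 in anergic libraries, -0.42 ± 0.10, adjusted p = 0.00462). Rgs10 stood on the other side, at 8.27, 4.39 and 11.9 in anergic libraries, much nearer to naive cells than to 1 day of HEL (HEL minus anergic 2.79 ± 0.29, adjusted p = 1.02e-05). Sp140 was likewise at 43.9 to 69.6 in anergic cells (HEL minus anergic 1.71 ± 0.21, adjusted p = 4.21e-05), and Faim3 at 2791 to 3082 (0.06 ± 0.11, adjusted p = 0.711). Cd86, at 5.57 to 12 in anergic cells, was higher after 1 day of HEL (1.19 ± 0.21, adjusted p = 0.00068). HEL and anergic libraries were each set beside the same naive libraries here, so only the direct contrast between them is tested.

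**Figure D5:**
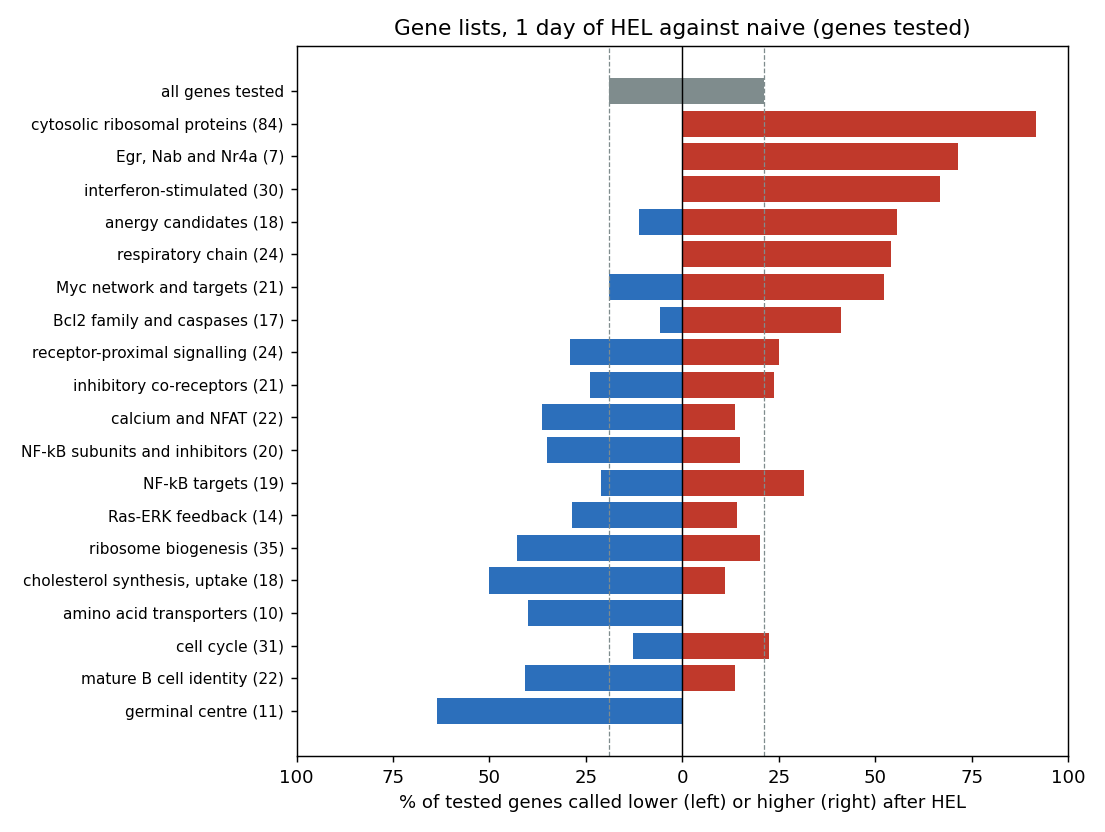
Percentage of the tested genes in each of 19 selected lists called higher (red, right) or lower (blue, left) after HEL, with the number tested in brackets, and all genes tested in grey at the top (21.2% and 19.1%, dashed lines). Of the lists drawn, ribosomal proteins, the Egr, Nab and Nr4a list and interferon-stimulated genes reach farthest to the right, and germinal centre genes farthest to the left.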

How the data were processed

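RNA-seq libraries of sorted follicular B cells were analysed, 5 after 1 day of HEL and 3 naive. The fit over 16 added 3 anergic libraries and 5 HEL libraries of Cd23-cre Ikzf1(fl/fl) mice. The chromatin samples (ATAC-seq, ChIP-seq) are not used here. The authors deposited TPM for 24732 genes, which sum to 1000000 in every library. Per the labels' protocols, polyadenylated RNA was selected on beads. Per the submitters' processing notes, the genome build was mm9 and the tools included featureCounts 1.5.0 and TopHat 1.4.1. Annotation and strandedness are not given in the sources used here. Whole reads could be recovered from the steps of the TPM values of 18843 of 18843 genes above 0 (tolerance 0.01), giving 16091616 to 20181057 reads per library in the 8 compared.

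TPM were divided by median-ratio size factors over the libraries of a fit, because the share of ribosomal protein genes differed between the groups. Genes with a scaled TPM of 1 or more in at least 3 libraries were tested on log2(scaled TPM + 1), using limma (version 3.58.1, R 4.3.3) with a mean-variance trend, two-sided, Benjamini-Hochberg adjustment and a threshold of 0.05. Single values per library were tested by exact permutation in Python 3.11.15. The anergic contrast came from the fit over 16 libraries. On simulated libraries the test recovered 70.1% of 67 genes changed 1.5-fold, 95.5% of 67 changed 2-fold and 100% of 66 changed 4-fold, with 7 unchanged genes called of 10427 tested. The simulation changed few genes, drew each gene independently and took the spread from the HEL libraries. It held no sex difference, no shift in ribosomal protein genes and no library that stood apart over many genes. Its rates may therefore not hold for the real libraries. No replicate pair agreed within sampling noise (chi-square per degree of freedom 7.87 to 28.5 over 13 pairs).

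The comparison and the gene lists were chosen with earlier results of these data known. The text names Ikzf1, Ikzf3, then the 12 most raised and 12 most lowered called genes with a mean scaled TPM of 5 or more and no overlap between groups, up to 5 called and 2 uncalled members per list, and textbook antigen-response genes. Antigen receptor segments, Xist, Y-linked genes and clone names were left out. Named outside this rule, after their values were seen, were Eef1a1, Pabpc1, Isg15, Ly6a, Tlr7, Tlr9, Mki67, Fos, Jun, Klf2 and S1pr1. So were Bmf, Prdm1, Xbp1, Irgm1, Stat2, Oas1a and Klrb1c. The file marks 3539 genes as overlapping another model and 474 as having duplicated models. Among those named are Atp1b1, Cd72, Cd74, Csf1r, Dgka, H2-Oa, Lck, Lta, Nab2, Nfkb2, Plxnb2 and Tk1, whose reads may belong in part to a neighbour. Some genes within the rule are not reported here.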

Additional observations from a re-analysis of the deposited data

Results flagged for a closer look

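In the HEL group of 5 libraries, 13 of 344 values examined had one library far from the other 4, with a gap above 0.71 of the whole range, and chance alone gives this in about 1 in 20 groups. HEL library 5 was the one in 5 of them. It was high in Atp1b1 (6.25 scaled TPM, the others 1.95 to 2.63), Malt1 (51.8) and Pim1 (39.3), and low in Cd72 (282.6 against 346 to 365) and Socs1 (11.8 against 51.9 to 55.4). HEL library 4 was high in Cdt1 (78.0), Phb2 (550.0), Polr1c (170.4) and Rnd3 (0.364). HEL library 3 was low in Hsp90aa1 (30.9) and in the summed heat shock and handling genes (559, the others 816 to 854), HEL library 2 was high in Npm1 (207) and HEL library 1 was low in Zfp36 (381).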

How the results depend on the processing

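Alternatives numbered 19, of which the fit to male libraries was added after seeing the data. Leaving out each library in turn gave 3081 to 4330 called genes, all within 1.5 times the 4218. With male libraries only 2731 were called, 1232 of them lower. With TPM as deposited 1036 were higher and 3979 lower, a share of higher calls of 20.7% in place of 52.6%. The 318 genes past 2-fold became 207 with a mean of 5 or more, 491 with a pseudocount of 0.1, 140 with a pseudocount of 5 and 494 with voom on recovered reads. Of 233 called genes in the named set, 172 kept the call under every alternative that tested them. Of the 92 uncalled ones, 3, namely Eif5a, Gna13 and H2-Aa, passed the threshold with the opposite sign with TPM as deposited (-0.16, -0.17 and -0.17). The difference in the ribosomal protein share stayed between 7.62 and 8.22 percentage points without any one library. No paired analysis was possible because the labels give no replicate numbers. Depth limits genes under about 1 scaled TPM, which were not tested.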
